A study of Mus musculus with 16 samples.

Results

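Gkn3 positive endothelial cells of the mouse hypothalamus and preoptic area were described here as a set of 617 cells, out of 6852 endothelial cells and 55675 cells kept in all. The members were selected on their counts of unique molecular identifiers (UMIs), each of which marks 1 captured transcript. A cell was kept with more than 200 and fewer than 4000 genes detected and a mitochondrial share of UMIs under 15%. It was called endothelial with at least 2 of 7 markers detected (Flt1, Cldn5, Ly6c1, Pecam1, Itm2a, Slco1a4 and Ly6a) and at most 1 of 12 markers of other cells (Mog, Mag, Agt, Aqp4, Snap25, Syt1, C1qa, C1qb, Pdgfra, Tmem212, Acta2 and Dcn). An endothelial cell with at least 2 Gkn3 UMIs was a member, called a Gkn3 cell below, and the 6235 others were the comparison cells. The 20 genes of this gate are given as a description, without a test.

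The samples were 16 Drop-seq libraries from female mice of a mixed CD-1;129P2 background carrying floxed Esr1 alleles. Esr1cKO mice also carried an Nkx2-1 Cre transgene, and Cre-negative littermates served as wild-type (WT) controls, so that all 4 groups shared the floxed alleles. Mice aged 8 to 10 weeks at the start received tamoxifen at 0.1 mg/kg or corn oil under the skin each day for 28 days, and tissue was taken 2 h after the last injection. The libraries held 2634253 to 8038158 UMIs each. There were 3 libraries of WT oil, 5 of WT tamoxifen, 4 of Esr1cKO oil and 4 of Esr1cKO tamoxifen. Cre was driven by the promoter of Nkx2-1, a transcription factor of the ventral forebrain, and no Nkx2-1 UMI was found in the Gkn3 cells, where a count of 0 in 1202524 UMIs allows, at a limit of 3 counts, a level of up to 2.49 CPM (the count of a gene scaled to the sum of all UMIs of its population).

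The endothelium of brain vessels changes along the vessel. Arteries and arterioles carry a program set by Notch and VEGF signals, with ligands such as Jag1, the target Hey1 and the gap junction proteins Gja4 and Gja5. Capillaries carry most of the nutrient transporters of the blood-brain barrier, and venules carry leukocyte adhesion molecules. Gkn3 encodes a secreted protein of the gastrokine family and is a marker of arterial endothelium in the mouse brain. Arterial endothelium lies directly on smooth muscle cells.

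Gkn3 lies on the minus strand of chromosome 6 (87383256 to 87388935, GENCODE on GRCm38). The windows from 250 bases before to 50 after the start are shown for Gkn3, on which the cells were selected, and for Bmx and Gja4, which were both higher in the selected cells. They are RefSeq sequences of build GRCm38.p6, printed 5′ to 3′ on the gene's strand at chr6:87388886-87389185 (minus), chrX:164258144-164258443 (minus) and chr4:127313990-127314289 (minus). Capitals mark TGGGAA, the letters bound by the Notch effector RBPJ, and ACAAT, the core of SOX sites, each searched on both strands (the other strand reads TTCCCA and ATTGT).
Gkn3: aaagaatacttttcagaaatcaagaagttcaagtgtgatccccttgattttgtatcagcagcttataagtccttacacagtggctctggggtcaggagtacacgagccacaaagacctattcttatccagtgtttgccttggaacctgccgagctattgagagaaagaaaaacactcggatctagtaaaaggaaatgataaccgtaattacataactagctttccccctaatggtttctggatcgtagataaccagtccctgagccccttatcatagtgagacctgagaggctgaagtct
Bmx: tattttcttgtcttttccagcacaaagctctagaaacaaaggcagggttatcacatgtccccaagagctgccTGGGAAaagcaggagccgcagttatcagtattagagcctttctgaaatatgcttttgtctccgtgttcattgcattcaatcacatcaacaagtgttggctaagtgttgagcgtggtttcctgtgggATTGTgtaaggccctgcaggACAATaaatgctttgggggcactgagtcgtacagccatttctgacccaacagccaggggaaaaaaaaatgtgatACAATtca
Gja4: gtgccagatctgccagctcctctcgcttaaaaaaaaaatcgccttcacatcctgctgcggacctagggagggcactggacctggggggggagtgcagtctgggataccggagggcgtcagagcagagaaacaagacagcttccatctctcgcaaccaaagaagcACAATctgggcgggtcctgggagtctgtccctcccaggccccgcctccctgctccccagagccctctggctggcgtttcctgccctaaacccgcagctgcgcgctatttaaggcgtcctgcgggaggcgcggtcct
The Gkn3 window held neither string, the Bmx window held 1 RBPJ and 3 SOX strings and the Gja4 window 1 SOX string. The window of Slc38a5, a gene lower in the selected cells and not shown, held 1 RBPJ string and no SOX string. Over all 32851 promoter windows, 25.6% held TGGGAA and 31.0% held ACAAT. The 32 windows of the 23 arterial list genes found in the table held TGGGAA in 25% and ACAAT in 25%, shares close to those of all windows.

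Members, chosen by their Gkn3 UMIs, held 4688 of the 8744 Gkn3 UMIs of all kept cells, with a median of 4 and a highest value of 111 in a cell. A further 3390 (38.8%) lay in 226 cells with at least 2 Gkn3 UMIs that the gate left out for more than 1 marker of other cells, at a median of 9. At the threshold, 147 members had exactly 2 Gkn3 UMIs and 334 comparison cells had 1, while 5901 comparison cells had 0. In other cells at least 1 Gkn3 UMI was seen in 0.353% of 5670 oligodendrocytes, 0.448% of 2900 astrocytes, 0.389% of 3088 microglia and macrophages and 0.933% of 4178 neurons, at median depths of 925, 625.5, 754.5 and 2370 UMIs, against 13.9% of the endothelial cells at 706. At least 2 UMIs were seen in 0 oligodendrocytes and in at most 0.0648% of any of these classes. The members were deeper than the comparison cells, with a median of 1392 UMIs against 665 and a mitochondrial share of 4.92% against 6.44%, and a threshold of 2 UMIs by itself favours deep cells. Thinned to 500 UMIs each, 80.2% of the 551 members that reached this depth still had a Gkn3 UMI.

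The gate genes differed between the populations as follows, over the 15 libraries with at least 5 members. Gkn3 was at 3903 ± 1238 CPM (mean ± SD, n = 15) in members and 60.9 ± 21.3 CPM in comparison cells. Ly6c1 was at 4984 ± 670 CPM against 3641 ± 572 CPM and Cldn5, a tight junction protein, at 810 ± 218 CPM against 763 ± 210 CPM. Flt1, a VEGF receptor, was at 3846 ± 695 CPM against 4430 ± 528 CPM. Itm2a was at 1404 ± 385 CPM against 3795 ± 423 CPM and was lower in members in every one of these libraries. Flt1 was higher in members in 1 of 15 libraries and Cldn5 in 7 of 15. Of the members 152 had all 7 endothelial markers, and as these genes chose the cells their presence says nothing more about them.

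Some libraries and cells stood apart. WT oil replicate 1 had 3 members and was left out of the tests across genes, which left 2 WT oil libraries there. WT oil replicate 3 and Esr1cKO tamoxifen replicate 3 separated from the others on the first principal component of the comparison cells, which held 33.2% of the variance, and their deposited barcodes all had at least 100 genes, against at least 20 in the others. Of 7910 genes that were expressed in the other libraries, 280 and 199 had no UMI in their comparison cells, against 0 to 127 in the other libraries. A total of 520 barcodes was kept in more than 1 library, mainly in WT tamoxifen replicates 4 and 5, Esr1cKO oil replicate 4 and Esr1cKO tamoxifen replicate 4, where 7.45% to 11.1% of kept cells had such a barcode. Of the members 30 carried such a barcode. The main counts were repeated without these libraries or cells.

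Gkn3 cells against other endothelial cells of the same library were compared to ask which genes set them apart. Among 3806 genes tested, 420 were higher in Gkn3 cells, which is 11.04% of the genes tested, and 393 were lower, which is 10.33%, at an adjusted p under 0.05 (edgeR quasi-likelihood test with the library as a block, Benjamini-Hochberg). The median log2 fold change of all genes tested was 0.00. Without the 2 libraries that stood apart the counts were 371 and 328, with barcodes found in 1 library 412 and 383, and without the 4 libraries that shared barcodes 293 and 304.

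The arterial list was higher almost throughout. Like the other lists, it was chosen with earlier results of these data known, so that its count only describes these data. Of its 30 genes, 1 was Gkn3 itself and 6 had too few UMIs to test, and of the 23 tested, 21 were higher, none was lower and 2 did not pass (Nebl and Tsc22d1), with a median log2 fold change of 1.54. Without the 2 libraries that stood apart 20 of 23 were higher, and without the 4 libraries that shared barcodes 18 of 22. With every cell thinned to 500 UMIs, 8 of 10 tested were higher. This made the depth of counting equal, while the members were still those chosen at full depth. It left out 66 members and 2083 comparison cells with fewer than 500 UMIs.

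Among the arterial genes, Mgp, which encodes matrix Gla protein, an inhibitor of vessel calcification, had a lowest, median and highest library of 1170, 2153 and 6649 CPM in Gkn3 cells and of 53.5, 201.2 and 595 CPM in comparison cells. The ranges did not overlap, and 15 of 15 libraries were higher in their Gkn3 cells. The share of all tested genes without such overlap is not given. Lack of overlap, here and below, only describes the spread of the gene named. The difference for Mgp was 3.52 ± 0.13 on the log2 scale (± SE, edgeR adjusted p = 3.75e-32). Bmx, a kinase of the Tec family in arterial endothelium, spanned 143, 406 and 696 CPM against 17.1, 52.6 and 120 CPM. Its libraries did not overlap, and it was higher by 2.73 ± 0.14 on the log2 scale (edgeR adjusted p = 1.23e-25). The secreted guidance factor Sema3g spanned 121, 294 and 613 CPM against 17.8, 53.4 and 112 CPM, again without overlap, with a log2 fold change of 2.30 ± 0.13. Vegfc, the growth factor of lymphatic vessels, spanned 71.6, 205 and 326 CPM against 4.75, 29.9 and 59.5 CPM, without overlap. Its log2 fold change was 2.57 ± 0.16.

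Further arterial genes were as follows. The gap junction gene Gja4 had a mean of 163 ± 80.5 CPM in Gkn3 cells against 40.8 ± 18.1 CPM (n = 15) and was higher in 14 of 15 libraries. The Notch ligands Jag1 and Jag2 were higher by 1.97 ± 0.13 and 1.26 ± 0.17 on the log2 scale, and the Notch target Hey1 by 1.22 ± 0.15. The transcription factor Sox17 spanned 636, 820 and 1227 CPM against 334, 429 and 509 CPM, and its libraries did not overlap. The ephrin ligand Efnb2 had a log2 fold change of 0.75 ± 0.19 and Unc5b, a netrin receptor, of 0.58 ± 0.19, and both passed in fewer alternatives than the genes above. Nebl (0.19 ± 0.12) and Tsc22d1 (0.08 ± 0.07) did not pass. Of the 6 genes too sparse to test, Gja5 had a UMI in 5.83% of members against 0.112% of comparison cells, Fbln5, an elastic fibre protein, in 14.6% against 1.03% and Cytl1 in 7.29% against 0.160%, at the unequal depths given above. Thinned to 500 UMIs, these shares were 1.45% against 0.0963%, 6.35% against 0.723% and 3.09% against 0.145%. The shares were closer for the Notch ligand Dll4 (8.10% against 2.49%, and thinned 2.36% against 1.57%), for the lipoxygenase Alox12 (11.99% against 2.10%, and thinned 3.63% against 1.16%) and for Slc45a4 (3.08% against 0.690%, and thinned 0.544% against 0.409%).

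**Figure D1:**
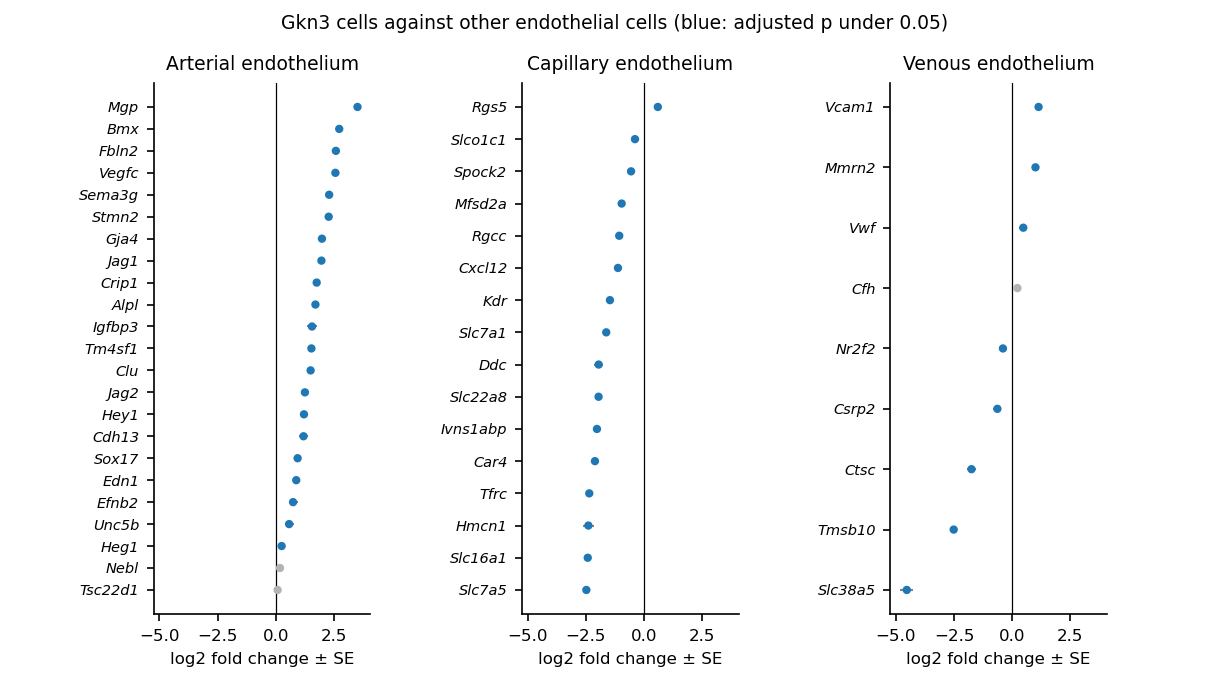
Log2 fold change of Gkn3 cells against other endothelial cells (x axis, ± SE, edgeR, 15 libraries) for each tested gene of the arterial, capillary and venous lists, with genes of the gate left out and genes at an adjusted p under 0.05 in blue. Of the arterial genes 21 of 23 lie right of 0 in blue, of the capillary genes 15 of 16 lie left of it, and the venous genes lie on both sides.

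The capillary list was lower. Of its 16 tested genes 15 were lower and 1, Rgs5, was higher, with a median log2 fold change of -1.78. Rgs5, a regulator of G protein signalling, is also on the pericyte list. The amino acid transporter Slc7a5 spanned 0, 55.9 and 147 CPM in Gkn3 cells against 194, 338 and 421 CPM in comparison cells, without overlap, and fell by 2.48 ± 0.15 on the log2 scale. The monocarboxylate transporter Slc16a1 fell by 2.42 ± 0.16 and the transferrin receptor Tfrc had a log2 fold change of -2.35 ± 0.13. Tfrc spanned 0, 106 and 341 CPM against 393, 598 and 909 CPM, without overlap. The lipid transporter Mfsd2a had a smaller difference, with a mean of 153 CPM against 282 CPM.

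The venous list split. Of its 9 tested genes, 5 were lower and 3 were higher, and 8 of 17 in the files had too few UMIs. With no filter on low counts, where the median log2 fold change of the 3806 genes moved to -0.20, 11 were lower and 2 higher of 17, and in WT libraries alone 2 were lower and 4 higher of 8, so that the balance turned with the setting. Slc38a5, a glutamine transporter, had no UMI in the Gkn3 cells of 9 libraries and spanned 0, 0 and 98.1 CPM against 147, 199 and 306 CPM. Its libraries did not overlap, and its log2 fold change was -4.53 ± 0.28 (edgeR adjusted p = 2.89e-21), the lowest of the genes named by rule. Tmsb10, an actin-binding peptide, followed at -2.52 ± 0.13 and the protease Ctsc at -1.75 ± 0.21. The higher genes were the adhesion molecule Vcam1 (1.13 ± 0.16), Mmrn2 and Vwf, the clotting factor carrier.

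**Figure D2:**
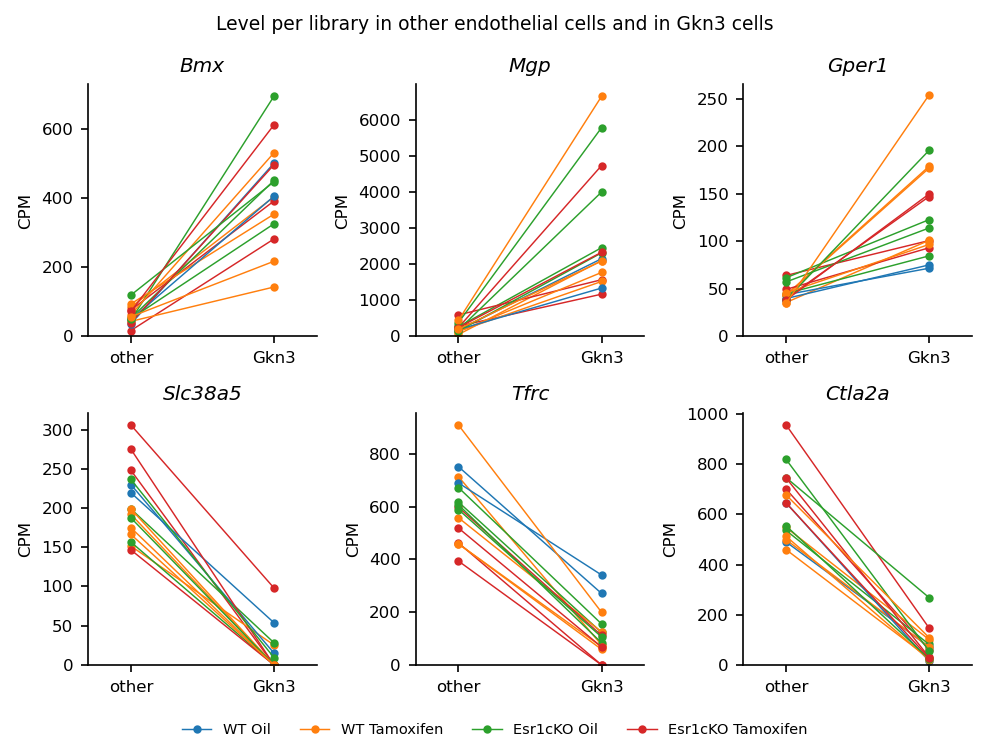
CPM (y axis) in the comparison cells (other) and the Gkn3 cells of each of 15 libraries, joined by a line and coloured by group, for 3 genes that were higher and 3 that were lower. Each line of Bmx, Mgp and Gper1 rises and each line of Slc38a5, Tfrc and Ctla2a falls.

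Genes outside the fixed lists were led by Egfl8, an EGF-like secreted protein. It had 204 ± 67.2 CPM in Gkn3 cells against 21.0 ± 10.3 CPM, a log2 fold change of 3.31 ± 0.18, and its position overlaps a read-through transcript on the same strand, so that its reads are uncertain. The cell cycle gene Ccnd2 was higher by 2.32 ± 0.10 and Amd1, an enzyme of polyamine synthesis, by 1.98 ± 0.11, both in 15 of 15 libraries without overlap. Of the lower genes, Fmo2, a flavin-containing monooxygenase, was at 15.5 ± 24.8 CPM against 214 ± 95.8 CPM and had no UMI in the Gkn3 cells of 6 libraries. Ctla2a was at -3.41 ± 0.16 and Ctla2b at -2.63 ± 0.31 on the log2 scale, and as near-identical neighbours they may share reads. Mt2, a metallothionein, had a log2 fold change of -2.32 ± 0.14 and Smox, which oxidises the polyamine spermine, of -2.92 ± 0.31.

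The Notch, ephrin and VEGF list moved in both directions. Of 19 tested genes 9 were higher, among them Vegfc, Sema3g, Jag1, Jag2, Hey1, Sox17, Efnb2 and Unc5b, which it shares with the arterial list, and Hes1. The 5 lower genes were the VEGF receptors and co-receptors Nrp2, Kdr, Flt4 and Nrp1, and Mfng, which modifies Notch. Kdr, the main VEGF receptor, was at 155 CPM in Gkn3 cells against 431 CPM, a log2 fold change of -1.46. Barrier junctions and transporters were mostly lower, with 22 of 30 tested genes lower, 2 higher (Cav1 and Slc6a6) and a median of -0.61. Slc2a1, the glucose transporter, was not called, at 1469 CPM against 1358 CPM, and neither was the junction gene Cdh5, at 227 CPM against 249 CPM.

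Genes of vascular tone included 7 higher and 3 lower of 15 tested. The vasoconstrictor peptide gene Edn1 was at 589 ± 191 CPM against 313 ± 91.9 CPM and the flow-responsive factors Klf4 and Klf2 were higher by 0.56 and 0.28 on the log2 scale. Of elastic fibre and basement membrane genes 6 were higher and 3 lower of 15 tested, led by Mgp, Fbln2 (2.59 ± 0.16), Timp3 and Ltbp4, while Sparc, a matrix glycoprotein, was lower by 0.76 on the log2 scale. Immediate early genes, which rise within minutes of a stimulus, were higher in 18 of 22 tested and lower in none, with a median of 0.73. Nr4a2, Atf3 and Nr4a1 led them, at log2 fold changes of 1.27 ± 0.17, 1.22 ± 0.09 and 1.20 ± 0.12. In the smaller set of cells with no smooth muscle or pericyte UMI, described below, none of 15 immediate early genes tested passed, and their median was 0.28.

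Several zonation genes differed with the number of Gkn3 UMIs in the cell, and others did so less evenly. Bmx was at 48.5 CPM in the comparison cells with 0 Gkn3 UMIs, at 271 CPM in those with 1 and at 507 CPM in members with 10 or more. Thinned to 500 UMIs, cells with a Bmx UMI made up 2.32%, 12.5% and 24.0% of these groups. Mgp was at 207, 747 and 4796 CPM in the same groups, and Slc38a5 at 215, 51.3 and 0 CPM. For these genes the comparison cells with 1 Gkn3 UMI lay between those with 0 and the members. Among the other arterial genes examined, thinned shares had the same order for Stmn2 (4.07% with 0, 16.2% with 1 and 22.6% to 31.4% in the groups of members), Tm4sf1 (24.0%, 47.8% and 50% to 62.8%), Alpl (3.58%, 8.09% and 10.6% to 20.3%) and Fbln5 (0.670%, 1.47% and 4.07% to 7.93%). For Sema3g, Vegfc, Sox17, Gja4, Gja5, Hey1, Efnb2 and Clu the share with 1 Gkn3 UMI was above that of at least 1 group of members. Clu was at 5.05%, 4.41% and 4.07% with 0, 1 and 2 Gkn3 UMIs and at 17.4% with 10 or more, Gja4 was highest at 2 (11.4%) and at 6.61% with 10 or more, and Hey1 was highest at 2 (8.94%) and at 6.61% with 10 or more. With these 334 cells left out of the comparison, 20 of 22 arterial genes were higher. Cells were pooled over libraries here, and no test was made.

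**Figure D3:**
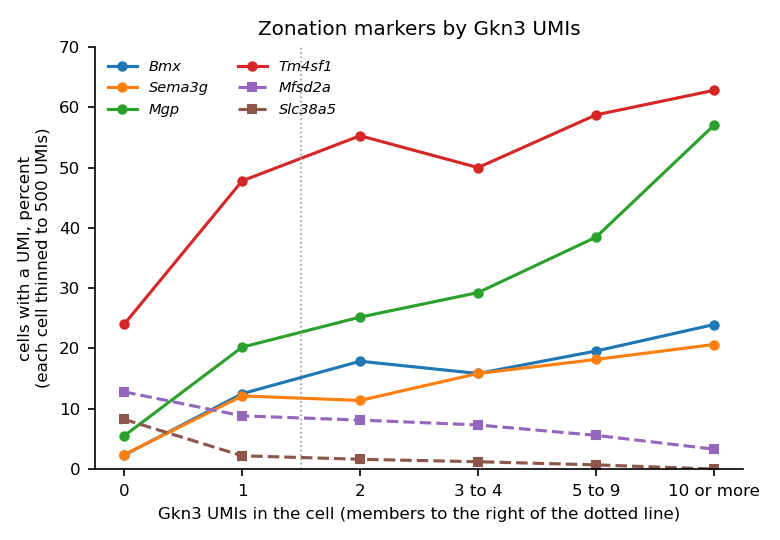
Percent of cells with a UMI (y axis, each cell thinned to 500 UMIs) of 4 arterial and 2 other zonation genes by the number of Gkn3 UMIs in the cell (x axis), with members right of the dotted line. Shares of Bmx, Sema3g, Mgp and Tm4sf1 are lowest at 0 Gkn3 UMIs, and those of Mfsd2a and Slc38a5 are highest there.

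Smooth muscle genes were higher together with the arterial genes. All 9 tested genes of the smooth muscle list were higher, with a median log2 fold change of 2.28, and the summed list was at 7817 ± 2453 CPM in Gkn3 cells against 2013 ± 272 CPM (higher in 15 of 15 libraries). Its most abundant gene was Crip1, which is on the arterial list too, and none of its genes was at 0. Myh11, the heavy chain of smooth muscle myosin, spanned 233, 476 and 1188 CPM against 38.8, 93.0 and 132 CPM, without overlap, with a log2 fold change of 2.53 ± 0.14. A UMI of Acta2, smooth muscle actin, was present in 156 members, since the gate allowed 1 marker of another cell.

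The 370 members with none of the 12 other markers were then set beside comparison cells of the same kind. This subset leaves out cells with Acta2, which by itself lowers smooth muscle counts. The 13 smooth muscle genes other than Acta2 and Crip1 were summed to 4376 ± 1521 CPM against 1190 ± 153 CPM in all Gkn3 and comparison cells, and to 1658 ± 382 CPM against 939 ± 122 CPM in these. Myh11 was at 114 ± 101 CPM against 39.5 ± 14.4 CPM in these. Crip1, on both lists, was at 2589 ± 609 CPM against 741 ± 162 CPM in all cells and at 1497 ± 356 CPM against 653 ± 143 CPM in these. Mgp was at 2643 ± 1980 CPM against 213 ± 130 CPM (higher in 14 of 15 libraries), Bmx was at 449 ± 215 CPM against 55.2 ± 25.2 CPM and Sema3g at 339 ± 165 CPM against 55.8 ± 23.1 CPM. Of the arterial list 14 of 15 tested genes were higher there. With no UMI of any smooth muscle or pericyte gene apart from Rgs5 and Crip1, 107 members remained, of which those in 10 libraries with at least 5 were tested, and 5 of 7 tested arterial genes were higher, with Mgp at 4.01 and Tm4sf1 at 1.59 on the log2 scale. There no immediate early gene of 15 tested passed.

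**Figure D4:**
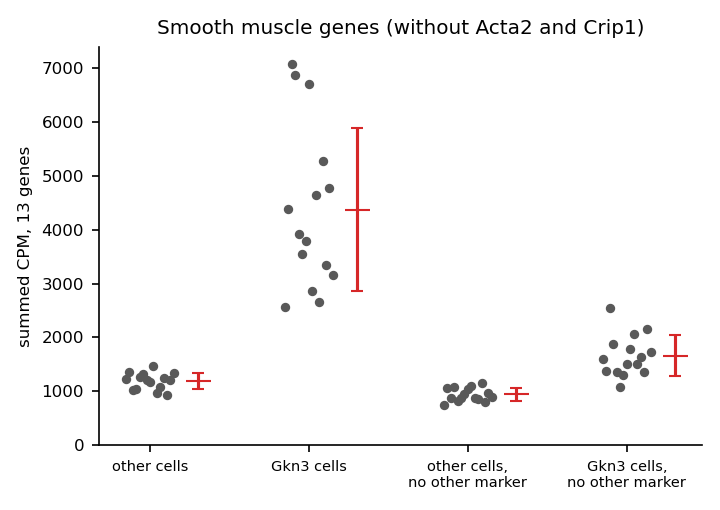
Summed CPM (y axis) of 13 smooth muscle genes in each of 15 libraries, with the mean ± SD in red, in comparison cells and Gkn3 cells and in those of either kind with none of the 12 markers of other cells. The Gkn3 cells average 4376 CPM in all and 1658 CPM without such markers, against 1190 and 939 CPM in the comparison cells.

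Markers of other cells were distributed as follows. The pericyte list was summed to 7000 ± 1821 CPM in Gkn3 cells against 4996 ± 944 CPM, most of it Rgs5. Of its 11 tested genes 5 were higher, Notch3 (0.90 ± 0.15), Rgs4 (0.77 ± 0.12), Higd1b (0.77 ± 0.11), Cspg4 (0.62 ± 0.22) and Rgs5 (0.60 ± 0.07), and 2 were lower, Abcc9 (-1.43 ± 0.19) and Kcnj8 (-0.86 ± 0.21), which form the potassium channel of pericytes. Fibroblast genes were at 595 ± 285 CPM against 430 ± 211 CPM, with Apod and Igf2 called higher. Neuron genes were at 430 ± 173 CPM against 826 ± 460 CPM, oligodendrocyte genes at 1361 ± 398 CPM against 1807 ± 406 CPM and astrocyte genes at 1581 ± 558 CPM against 1842 ± 408 CPM, with Aqp4 at 0 in members. Microglia genes were at 99.96 ± 68.1 CPM against 102 ± 50.1 CPM and polydendrocyte genes at 37.3 ± 22.1 CPM against 84.9 ± 34.5 CPM. The ependymal list was at 1816 ± 328 CPM against 709 ± 128 CPM, nearly all of it Tm4sf1, which the arterial list holds too. Red blood cell genes were at 16579 ± 17976 CPM against 22334 ± 9610 CPM, and all 4 tested globin genes were called lower, with Hbb-bs lower in 10 of 15 libraries. In WT libraries alone none of these 4 passed. All of these sums but those of pericytes and red blood cells hold genes of the gate (Aqp4 and Agt among the astrocyte genes), which the selection limited, so that low sums partly restate the gate. The part of these other cells in the differences above was not tested.

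Of the estrogen and progesterone receptors counted, Esr1, Esr2 and Pgr were scarce. Esr1, the gene deleted in the Esr1cKO mice, was counted first as a check of the labels. Its UMIs in the Gkn3 cells were 0, 1 and 0 in WT oil, 2, 1, 4, 9 and 1 in WT tamoxifen, 0, 1, 4 and 4 in Esr1cKO oil, and 1, 1, 1 and 0 in Esr1cKO tamoxifen, in the order of the replicates. Summed by group these were 7.96, 38.0, 27.7 and 9.86 CPM, with exact Poisson intervals, which cover counting error only, of 0.202 to 44.3, 22.1 to 60.8, 12.7 to 52.5 and 2.03 to 28.8 CPM. All 4 intervals overlap. WT oil replicate 3 and Esr1cKO tamoxifen replicate 3, which stood apart, held 66444 of 125644 and 160822 of 304160 UMIs of their groups' Gkn3 cells. In their comparison cells Esr1 was at 3.07 and 5.94 CPM, against 9.49 to 96.4 CPM in the other libraries. The deletion removes an internal exon while Drop-seq counts the 3′ ends of transcripts, so these counts check neither the deletion nor the labels. Over all libraries Esr1 was at 24.9 CPM in Gkn3 cells and 30.0 CPM in comparison cells, Esr2 at 7.48 and 9.34 CPM and Pgr, the progesterone receptor, at 2.49 and 6.45 CPM.

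Gper1, a membrane receptor reported to bind estrogen, was higher in Gkn3 cells. In the order of the replicates its level in Gkn3 cells was 71.8 and 75.3 CPM in WT oil replicates 2 and 3, 101, 179, 177, 96.8 and 254 CPM in WT tamoxifen, 123, 84.8, 196 and 114 CPM in Esr1cKO oil and 101, 147, 93.3 and 150 CPM in Esr1cKO tamoxifen. In comparison cells the same 15 libraries spanned 34.8, 43.6 and 64.2 CPM. Every library was higher in its Gkn3 cells and the populations did not overlap, at 1.52 ± 0.18 on the log2 scale (edgeR adjusted p = 2.12e-10). It was detected in 19.0% of members and 3.43% of comparison cells at their unequal depths, and in 6.90% and 2.05% with each cell thinned to 500 UMIs. The smooth muscle genes above were higher in the same cells. In cells with none of the 12 other markers Gper1 was at 108 ± 68.8 CPM against 39.5 ± 14.3 CPM (higher in 13 of 15 libraries), too few UMIs for the test. In 10 libraries at least 5 members were free of smooth muscle and pericyte UMIs. There Gper1 was at 104 ± 164 CPM against 7.10 ± 9.50 CPM. It was higher in 4 of 10, with no UMI in the Gkn3 cells of the other 6. Those 4 were WT tamoxifen replicates 3, 4 and 5 at 446, 138 and 349 CPM and Esr1cKO oil replicate 4 at 102 CPM. Without this restriction the comparison cells were at 45.4 ± 9.08 CPM. The study reported Gper1 transcripts mainly in mural cells. The part of such cells in the Gper1 level of Gkn3 cells was not tested. Of 7 tested genes of the list of estrogen and progesterone receptors with targets, Gper1 and Ccnd1 were higher and Cxcl12 and Ncoa1 were lower.

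Tamoxifen against oil, and Esr1cKO against WT, were then compared over mice within the Gkn3 cells, at 2195 tested genes. No gene passed in WT mice (0.000% of genes tested), in Esr1cKO mice (0.000%), in the interaction of genotype and treatment (0.000%) or between genotypes (0.000%), by edgeR or by DESeq2. At an unadjusted p under 0.05 there were 92, 74, 105 and 83 genes. With no filter on low counts, genes passed for the interaction and between genotypes. Those between genotypes were all globin genes (Hba-a1 at -1.82 on the log2 scale, adjusted p = 2.35e-13, edgeR). Hba-a1 varied widely between libraries, with a lowest, median and highest of 14.1, 1940 and 11355 CPM in Gkn3 cells. Without WT oil replicate 2 the interaction had 28 calls, and without the 2 libraries that stood apart 3 genes passed between genotypes, each of which left 1 WT oil library, assumed to vary like the other groups. With barcodes found in 1 library, or without the 4 libraries that shared barcodes, all 4 comparisons had 0 calls. WT oil had only 2 libraries here, with 27 and 38 Gkn3 cells at a median of 1838 and 1459.5 UMIs. Without replicate 2 the WT oil library left was replicate 3, 1 of the 2 that stood apart. The genes of smallest p are given as values only.

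In WT mice the smallest p-values were those of Lonp2, Slc16a1 and Ddit4. Slc16a1 was at 215 and 256 CPM in WT oil and at 25.3, 35.8, 78.7, 55.3 and 36.3 CPM in WT tamoxifen, at -2.08 ± 0.51 on the log2 scale (edgeR adjusted p = 0.513). Esr1cKO oil had 41.0, 56.5, 103 and 73.4 CPM. WT oil replicate 1, left out of the test with its 3 members, had 0 UMIs of Slc16a1 and 1 UMI each of Lonp2 and Ddit4. Lonp2, a peroxisomal protease, had no UMI in both WT oil libraries tested and 69.1 to 163 CPM in WT tamoxifen. Ddit4, a stress-induced inhibitor of growth signalling, was at 53.8 and 30.1 CPM in WT oil and at 89.5 to 163 CPM in WT tamoxifen. In Esr1cKO mice Rasd1, Ttll7 and Eif5a had the smallest p-values (adjusted p = 0.999 each, edgeR). For the interaction these were Slc24a3, Zranb2 and Gopc (adjusted p = 0.902 each). Slc24a3, a sodium, potassium and calcium exchanger, was at 15.1 CPM in WT oil replicate 3 and 6.22 CPM in Esr1cKO tamoxifen replicate 3, the libraries that stood apart. The other libraries tested had 71.8 CPM and more. Its log2 fold change for the interaction was -3.92 ± 0.96, and -5.34 without WT oil replicate 2. With no filter on low counts Slc24a3 passed for the interaction at -3.99 (adjusted p = 0.0127, edgeR). Between genotypes they were Pask, Ddit4 and Lonp2, with Pask, a metabolic sensor kinase, at -1.37 ± 0.31 on the log2 scale (edgeR adjusted p = 0.544), and at -1.75 (adjusted p = 0.0276, edgeR) without the 2 libraries that stood apart.

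Gper1 had log2 fold changes of 1.13 ± 0.52 for tamoxifen in WT mice (adjusted p = 0.942, edgeR) and of -0.22 ± 0.39 in Esr1cKO mice (adjusted p = 0.999), and neither passed. Esr1 had too few UMIs for this test. Gkn3 itself, on which cells were selected, was at 2511 and 3341 CPM in WT oil, 3703 ± 946 CPM (n = 5) in WT tamoxifen, 4959 ± 1453 CPM (n = 4) in Esr1cKO oil and 3587 ± 1190 CPM (n = 4) in Esr1cKO tamoxifen. The treatment effect in Gkn3 cells minus that in comparison cells passed for no gene of 3828 in WT mice (0.000%) or in Esr1cKO mice (0.000%), with 185 and 132 genes at an unadjusted p under 0.05. With no filter on low counts, Mgp passed in Esr1cKO mice at -1.07 on the log2 scale (adjusted p = 0.0159, edgeR). Without Esr1cKO tamoxifen replicate 3 it passed at -1.62 (adjusted p = 0.00545, edgeR), and without the 2 libraries that stood apart its value was -1.60.

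No difference between groups in the share of Gkn3 cells among endothelial cells passed the exact permutation test. In WT oil 3 of 158, 27 of 418 and 38 of 338 endothelial cells were Gkn3 cells, which is 1.90%, 6.46% and 11.2%. In WT tamoxifen the shares were 9.24%, 12.4%, 6.43%, 8.33% and 6.67%. In Esr1cKO oil they were 7.06%, 11.3%, 13.5% and 14.4%, and in Esr1cKO tamoxifen 8.50%, 3.03%, 14.2% and 6.64%. The groups overlapped in every comparison, and the exact 95% binomial interval of the highest share was 11.2% to 18.1% and of the lowest 0.393% to 5.45%, for counting error only.

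Tamoxifen minus oil was 2.08 percentage points in WT mice (exact permutation p = 0.429, adjusted 0.571, two-sided) and -3.49 in Esr1cKO mice (exact permutation p = 0.286, adjusted 0.571). Esr1cKO minus WT was 5.05 percentage points under oil (exact permutation p = 0.143, adjusted 0.571) and -0.52 under tamoxifen (exact permutation p = 0.865, adjusted 0.865). The smallest p these designs allow were 0.0179, 0.0286, 0.0286 and 0.00794. The WT difference rests on WT oil replicate 1 with its 3 members, without which it was -0.24. Without that library Esr1cKO minus WT under oil was 2.73, and without Esr1cKO tamoxifen replicate 2 the Esr1cKO differences were 1.17 under tamoxifen and -1.80 for tamoxifen minus oil. Without Esr1cKO tamoxifen replicate 3 these were -2.56 and -5.52. Each of the first 3 successive fours of library numbers held 1 library of every group. Esr1cKO oil was above WT oil in all 3, WT tamoxifen was above WT oil in 2 of 3, Esr1cKO tamoxifen was above Esr1cKO oil in 2 of 3, and it was above WT tamoxifen in 1 of 3. Among the last 4 libraries, with no WT oil library, Esr1cKO tamoxifen was below Esr1cKO oil and below both WT tamoxifen libraries.

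**Figure D5:**
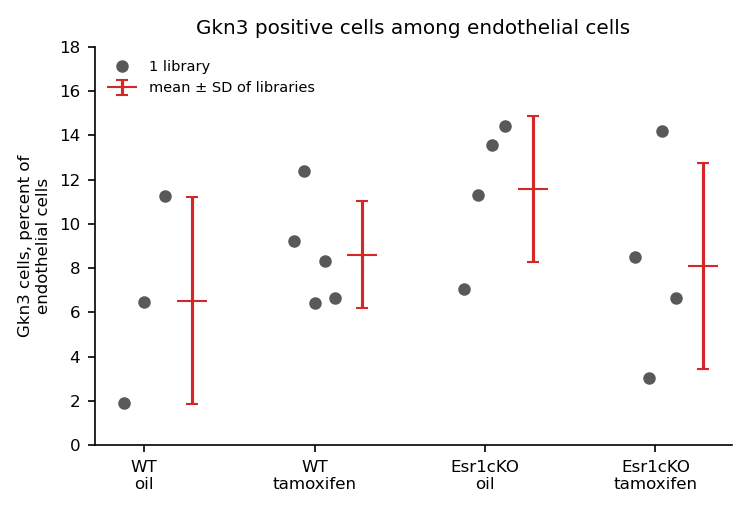
Gkn3 cells as a percent of endothelial cells (y axis) in each library of the 4 groups (x axis), with the mean ± SD of libraries in red. Shares run from 1.90% to 14.4%, and the groups overlap.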

How the data were processed

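Single-cell transcriptomes of 16 mice were made by Drop-seq. The deposited matrices hold the authors' UMI counts per gene and barcode, not normalized, aligned with STAR 2.6 to mm10 and processed with Seurat 3.6.1 per the labels. In the study's methods 3.6.1 is the version of R, and Seurat has a different one. The matrices held 146538 barcodes. Here cells were filtered, gated and summed by library and population, with totals of 3452 to 160822 UMIs in members. Counts were tested with edgeR 4.0.16 (quasi-likelihood, TMM, filterByExpr, libraries with at least 5 members), with the library as a block between populations and the 4 groups between mice, and standard errors as the absolute log2 fold change over the root of F. DESeq2 was an alternative. Shares were compared by exact permutation over mice, adjusted over 4 comparisons. Doublets were called with Scrublet (expected rate 0.05), with 0 of the members and 1.23% of comparison cells called, and were kept in the main counts. Scripts were tested on simulated data. The members and lists were chosen with earlier results of these data known. Named genes were the 15 highest and 15 lowest called log2 fold changes at 50 CPM or more and in the same direction in 90% of libraries, the arterial list, the receptors and Nkx2-1, and the 3 largest called of each other list, and between mice the 5 largest called or, with none, the 3 of smallest p, with Esr1 and Gper1. Not all are described in the text. Per the study's methods the 4 groups were processed in parallel, with 4 mice a day over 4 days, and the labels do not tie libraries to days. Replicates are separate libraries by the labels, and p-values measure the spread between them.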

Additional observations from a re-analysis of the deposited data

Results flagged for a closer look

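In 4 of 93 group values examined, 1 library lay far from the rest of its group, where chance gives about 1 in 20. Mgp was at 6649 CPM in the Gkn3 cells of WT tamoxifen replicate 4, against 2099 CPM in the next of 5 libraries. Jag1 was at 41.0 CPM in Esr1cKO oil replicate 1, where the next lowest of 4 libraries had 311 CPM. Unc5b was at 106 CPM in Esr1cKO oil replicate 4, where the next had 46.6 CPM, and Ccnd1 at 161 CPM in Esr1cKO tamoxifen replicate 1, where the next had 280 CPM.

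Outside the members, 226 further cells had at least 2 Gkn3 UMIs but more than 1 marker of other cells, which is a signal the comparisons above did not use. They held 3390 Gkn3 UMIs, 38.8% of all, at a median of 9 in a cell, and had a median depth of 3954.5 UMIs. Of these cells 182 had a UMI of Acta2, 126 of Dcn, a fibroblast gene, and 107 of both. Scrublet called 4 of them doublets.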

How the results depend on the processing

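Gkn3 cells against other endothelial cells gave 813 genes called, and 743 with DESeq2. The count left its range of 1.5 times with no filter on low counts (1608), with none of the other markers (372), with no smooth muscle or pericyte UMI (46 of 524 tested), with cells thinned to 500 UMIs (192), with a mitochondrial share under 5% (338), in WT libraries only (489) and in oil libraries only (412). These settings test fewer or more genes, or fewer libraries. With no filter the median log2 fold change of the 3806 genes tested moved from 0.00 to -0.20, so that list counts there lean to lower calls. Leaving out 1 library gave 746 to 836. Of the named genes, Nebl in Gkn3 cells against other endothelial cells turned to -0.00636 without a filter, -0.0992 thinned, -0.0018 with barcodes found in 1 library only, -0.0131 in Esr1cKO libraries and -0.0620 without the 4 libraries that share barcodes, none passing, and it passed at 0.45 with none of the other markers. Tsc22d1 in Gkn3 cells against other endothelial cells turned to -0.136 without a filter and -0.0136 in Esr1cKO libraries. Of the values of single named genes under settings other than leaving out 1 library, 1387 kept their direction and side of the threshold and 54 lost their call, among them values of Heg1, Unc5b, Efnb2, Igf2, Apod, Aldoa and Mbp.

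Between mice, the interaction had 7 calls with no filter and 32 without libraries 5 and 6 (WT oil and Esr1cKO tamoxifen replicates 2), which left WT oil with replicate 3 alone, assumed to vary like the other groups. Leaving out 1 library gave 0 to 28 there, with 28 without WT oil replicate 2. Esr1cKO against WT had 4 calls with no filter, all globin genes, and 3 without the 2 libraries that stood apart (Hba-a1, Hbb-bt and Pask, chosen after their values were seen), which left WT oil with replicate 2 alone, under the same assumption, and 0 in every fit that left out 1 library. The population difference in tamoxifen effect had 1 call in Esr1cKO mice (Mgp) with no filter, 1 without the 2 libraries that stood apart, and 0 to 1 on leaving out 1 library. Tamoxifen in WT or in Esr1cKO mice had 0 calls in all settings run. The libraries that stood apart and those that shared barcodes were chosen as settings after seeing the data. With the replicate block the 4 comparisons between mice each had 0 calls. The replicate numbers were given in accession order, and the labels do not say whether libraries of the same number share a day.

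The share under tamoxifen, Esr1cKO minus WT, turned to 0.12 with all kept cells as denominator and to 1.17 without libraries 5 and 6, and spanned -2.56 to 1.17 on leaving out 1 library. Tamoxifen minus oil in WT mice spanned -0.24 to 4.44, in Esr1cKO mice -5.52 to -1.80, and Esr1cKO minus WT under oil 2.73 to 7.40. None passed in any setting.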

Other observations

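Genes of coagulation and leukocyte adhesion moved in both directions in Gkn3 cells, with 7 higher and 3 lower of 11 tested, but 4 higher and 6 lower of 25 with no filter on low counts, where the median log2 fold change of the 3806 genes moved to -0.20, and with none of 5 passing in cells with no smooth muscle or pericyte UMI (edgeR). The tetraspanin Cd9 was at 242 ± 109 CPM against 114 ± 45.8 CPM in comparison cells, and Icam2 and Podxl were higher, while Emcn, a sialomucin of capillary and venous endothelium, was at 207 ± 73.5 CPM against 420 ± 46.3 CPM. Of the MHC class I and interferon list 11 of 17 tested genes were higher and none was lower, against 4 higher and 2 lower of 20 with no filter on low counts and 10 higher and 2 lower of 16 in cells with more than 500 genes. It was led by H2-D1 (0.78 ± 0.07) and H2-K1 (0.62 ± 0.07), whose near-identical relatives may share reads, and by Psmb9 (0.58 ± 0.16). B2m was also higher, by less than these. Of 9 tested glycolysis genes Aldoa was higher (0.33 ± 0.10) and Aldoc lower (-1.50 ± 0.20), and 7 did not pass.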
